A study of Homo sapiens with 6 samples.

Results

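The 7 neuropeptide genes NPY, GAL, VIP, SST, TAC1, CRH and ADCYAP1 were examined in SH-SY5Y cells, an established line from a human neuroblastoma that keeps many traits of young sympathetic neurons, after 4 h of exposure to unconjugated bilirubin. Members were the probe sets whose annotation gives only a listed gene symbol, which took 9 of 22215 tested probe sets and all 7 genes out of the 11963 genes represented. GAL and CRH had 2 probe sets each and the other genes 1 each. Cells of 3 flasks received medium with free bilirubin at 140 nM (Bf 140 nM), and cells of 3 other flasks received the solvent alone (DMSO 0.6%). All arrays came from the same line in medium with 15% foetal bovine serum, and the study describes its replicates as independent biological ones. Levels are on a normalised log2 scale, and every difference is the Bf 140 nM level less the DMSO 0.6% level.

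Neuropeptides are cut from larger precursors in the secretory pathway, stored in dense core vesicles and released with the classical transmitter of the neuron. Their genes are transcribed at very different rates in different neurons, and several of them, SST and VIP among the best studied, are switched on by cyclic AMP through the factor CREB, which binds the cyclic AMP response element (CRE) upstream of the gene. Sympathetic neurons, the lineage from which neuroblastoma arises, are known for NPY released together with noradrenaline, and for galanin and VIP in subsets of cells or after injury.

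The bases upstream of the start site are shown for VIP, the member that varied most between arrays, for SST, the classical CRE gene, and for NPY, a member far above the background-like level. They are the 250 bases before the start in RefSeq (GRCh38.p14), written 5′ to 3′ on the gene's strand, and capitals mark matches to 3 motifs searched on both strands. The full cyclic AMP response element is TGACGTCA, which reads the same on both strands and contains the CRE core. The CRE core searched on its own was TGACG, in either orientation. The TATA motif was searched as TATAAA, likewise in either orientation. VIP lies on the plus strand at chr6:152750547-152750796, SST on the minus strand at chr3:187670395-187670644 and NPY on the plus strand at chr7:24283940-24284189.
VIP: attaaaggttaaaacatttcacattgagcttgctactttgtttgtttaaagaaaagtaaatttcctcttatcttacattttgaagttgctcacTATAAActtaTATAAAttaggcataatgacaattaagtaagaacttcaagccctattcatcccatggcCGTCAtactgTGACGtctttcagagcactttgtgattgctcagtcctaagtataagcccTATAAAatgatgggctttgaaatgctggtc
SST: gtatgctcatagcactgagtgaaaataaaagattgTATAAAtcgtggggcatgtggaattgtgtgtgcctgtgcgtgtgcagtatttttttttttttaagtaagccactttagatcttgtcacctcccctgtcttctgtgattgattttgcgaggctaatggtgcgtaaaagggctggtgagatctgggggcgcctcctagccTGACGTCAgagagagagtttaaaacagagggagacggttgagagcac
NPY: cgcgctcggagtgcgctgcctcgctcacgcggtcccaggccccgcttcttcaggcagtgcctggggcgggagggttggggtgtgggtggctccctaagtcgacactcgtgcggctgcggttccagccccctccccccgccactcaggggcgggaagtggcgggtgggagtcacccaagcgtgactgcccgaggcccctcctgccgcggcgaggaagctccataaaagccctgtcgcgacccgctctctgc

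SST carried the full CRE beginning 47 bases before its start, and this palindrome also holds the CRE core on both strands. It had 1 TATAAA match, at 215 bases. VIP carried CRE cores beginning 89 and 79 bases before its start and TATAAA at 157, 147 and 30 bases. None of the 3 motifs was found in the NPY window. Of the 7 members 5 matched the promoter table (NPY, VIP, SST, TAC1 and ADCYAP1, the last with 2 windows), and GAL and CRH did not. TAC1 had a CRE core at 197 bases and the second ADCYAP1 window had one at 238 bases. The full CRE was present in 1.65% of 35116 windows of this length in the table, the CRE core in 21.2% and TATAAA in 10.7%. These matches describe letters only, and whether a factor bound them was not measured.

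Whether each gene gave a signal on the array was judged against 49 genes restricted to other tissues, such as genes of liver, muscle, blood cells and skin, which stood in for detection calls, not used here. The background-like level was the 95th percentile of their 67 probe sets on each array and lay between 8.08 and 8.26. Of these genes KRT10 alone exceeded it on all 6 arrays. It was exceeded on all 6 arrays by 40.6% of all tested probe sets. Of the 9 member probe sets 2 exceeded it on all 6 arrays, for NPY and GAL, VIP exceeded it on 2 arrays, and the other 6 on none. With the less strict 75th percentile, between 7.07 and 7.32, 4 member probe sets passed on all 6 arrays, with VIP and the dimmer GAL probe set added. Brightness also depends on the probes of each set, so the levels of different genes were not ranked.

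**Figure D1:**
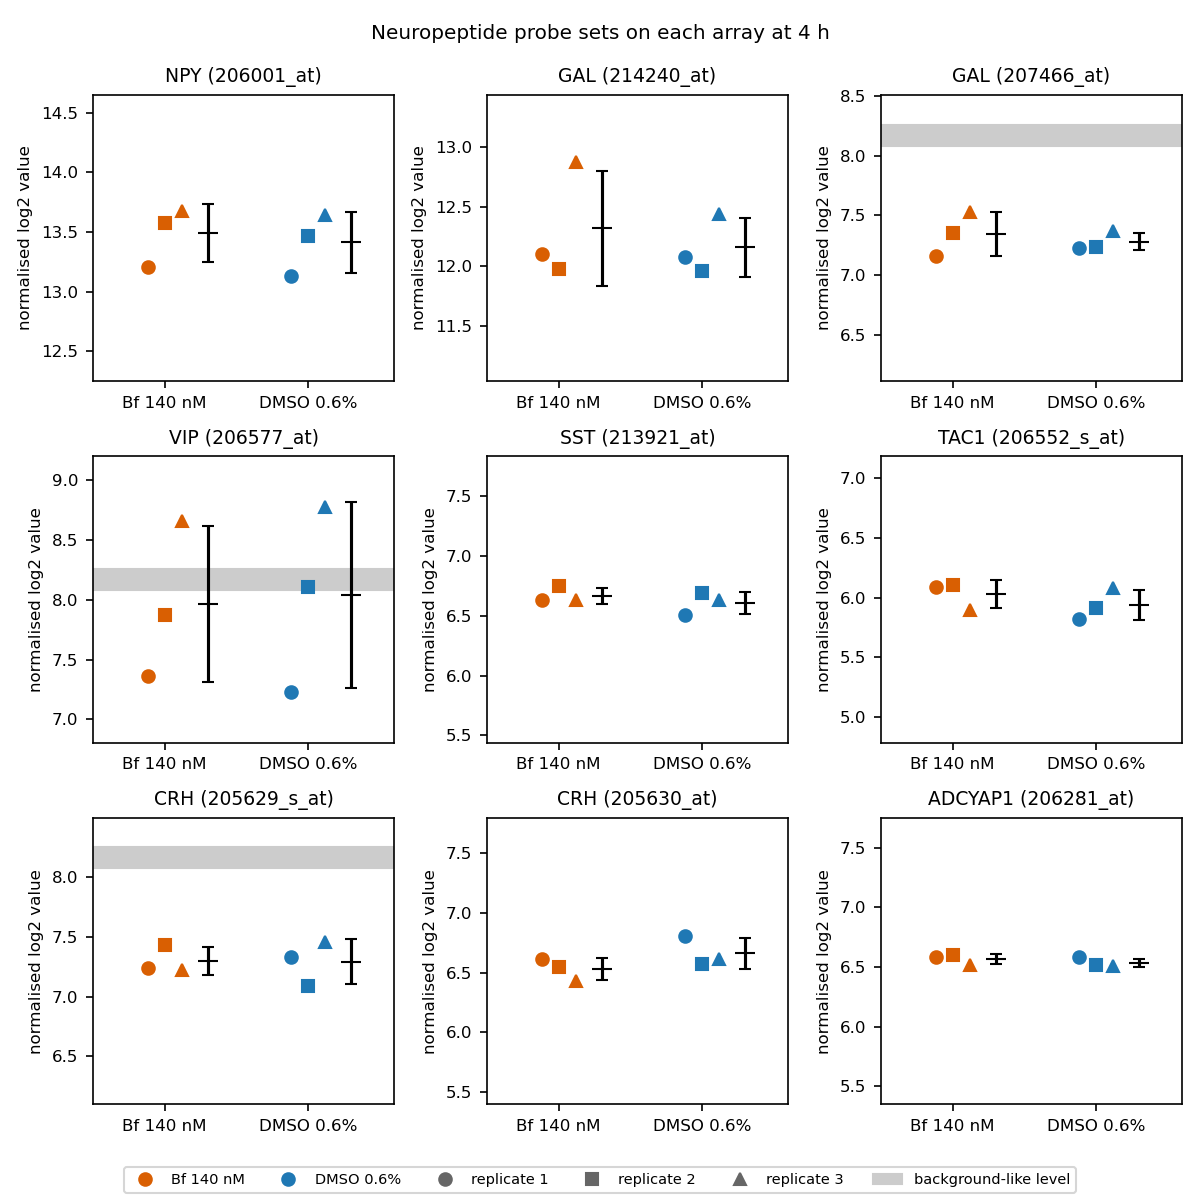
Normalised log2 values (vertical axis, of equal length in all panels) of the 9 neuropeptide probe sets, 1 point per array, Bf 140 nM (orange) left of DMSO 0.6% (blue); the shape of a point gives its replicate number, the black bars show the mean and SD of 3 arrays, and the grey band spans the background-like level of 8.08 to 8.26. The band is in view only for VIP, the dimmer GAL and the brighter CRH probe sets. NPY and the brighter GAL probe set lie far above that level, VIP crosses it, and the groups overlap in every panel.

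NPY, the peptide that sympathetic neurons release with noradrenaline, was bright on every array. It read 13.21, 13.58 and 13.68 in Bf 140 nM replicates 1, 2 and 3, against 13.13, 13.47 and 13.64 in DMSO 0.6% replicates 1, 2 and 3. The groups overlapped almost completely, and in both of them replicate 1 was the lowest. The difference was 0.08 (SE 0.17), a 1.06-fold ratio with a 95% confidence interval of 0.796 to 1.40. The adjusted p was 1.00 by limma, although Bf 140 nM was higher in 3 of 3 same-numbered pairs, by 0.08, 0.11 and 0.04.

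GAL encodes galanin, a peptide that dampens firing and secretion in many neurons and is raised after nerve injury. Its brighter probe set read 12.10, 11.98 and 12.87 in Bf 140 nM, against 12.08, 11.96 and 12.44 in DMSO 0.6%. Replicates 1 and 2 were near-equal between groups, and the array with the highest value was Bf 140 nM replicate 3. The difference was 0.16 (SE 0.25), a ratio of 1.12 (95% CI 0.749 to 1.67) with an adjusted p of 1.00 by limma. By pair it was 0.03, 0.02 and 0.44, and without Bf 140 nM replicate 3 it was -0.12. The dimmer GAL probe set read 7.16, 7.35 and 7.53 in Bf 140 nM, against 7.23, 7.24 and 7.37 in DMSO 0.6%. It was thus below the background-like level on all arrays for the same gene, with a difference of 0.06 (SE 0.12).

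VIP, the vasoactive intestinal peptide that relaxes smooth muscle and signals through cyclic AMP, spread most widely. It read 7.36, 7.87 and 8.66 in Bf 140 nM, against 7.23, 8.11 and 8.78 in DMSO 0.6%. Arrays of the same replicate number were close to each other, while arrays of one treatment were far apart: within-group SDs were 0.66 in Bf 140 nM and 0.78 in DMSO 0.6%, and pair differences were 0.13, -0.24 and -0.11. The difference between treatments was -0.07 (SE 0.44), with an interval of -1.11 to 0.96 and an adjusted p of 1.00 by limma. With the replicate number as a block the interval narrowed to -0.34 to 0.19, a ratio between 0.791 and 1.14, and the adjusted p was again 1.00.

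The remaining members were below the background-like level on all 6 arrays, where a generalised log2 scale can compress differences; how far it did so here was not measured. SST, the somatostatin gene whose product inhibits hormone release, read 6.63, 6.75 and 6.63 in Bf 140 nM, against 6.51, 6.69 and 6.63 in DMSO 0.6%. Its difference was 0.06 (SE 0.10). TAC1, the precursor of substance P and neurokinin A, read 6.09, 6.11 and 5.90 in Bf 140 nM, against 5.82, 5.91 and 6.08 in DMSO 0.6%. Its difference of 0.09 (SE 0.11) joined pairs of opposite sign, with 0.26 and 0.20 in pairs 1 and 2 and -0.18 in pair 3.

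CRH, the hypothalamic peptide that drives the pituitary stress axis, was read by 2 probe sets that differed in sign. The brighter one read 7.24, 7.43 and 7.22 in Bf 140 nM, against 7.33, 7.09 and 7.46 in DMSO 0.6%, a difference of 0.01 (SE 0.13). The dimmer one read 6.61, 6.55 and 6.43 in Bf 140 nM, against 6.81, 6.57 and 6.61 in DMSO 0.6%, a difference of -0.13 (SE 0.11) that was below 0 in 3 of 3 pairs. ADCYAP1 encodes PACAP, a close relative of VIP that raises cyclic AMP. It read 6.58, 6.60 and 6.52 in Bf 140 nM, against 6.58, 6.52 and 6.51 in DMSO 0.6%, and its difference was 0.03 (SE 0.09). The largest ADCYAP1 pair difference was 0.08.

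Against the array as a whole, the members stood out in no comparison of treatments. No member probe set passed an adjusted p of 0.10 by limma (0 of 9, where 0% of all 22215 tested probe sets did), and none of the 9 had an unadjusted p under 0.05, as 17 of all probe sets did. With the replicate block 0 of 9 and 0 of all passed, and 92 of all had an unadjusted p under 0.05. Both 17 and 92 of 22215 are far fewer than a threshold of 0.05 would give with no difference anywhere. A count of 0 of 9 therefore carries little information, and the reason for the low counts was not tested. The 3 values of each group overlapped with those of the other for each of the 9, while the groups did not overlap for 2.66% of all probe sets. Over the representative probe sets of the 7 genes the median difference was 0.06, with 6 of 7 above 0, beside a median of 0.03 over all probe sets. The intervals of the 8 member probe sets other than VIP lay within 2-fold in both directions on this scale, and that of VIP did so with the replicate block. The sign kept its direction under all alternatives run for SST, TAC1 and the dimmer CRH probe set, but not for the other members: leaving out DMSO 0.6% replicate 1 gave -0.063 for NPY, leaving out Bf 140 nM replicate 3 gave -0.12 and -0.029 for the 2 GAL probe sets, leaving out DMSO 0.6% replicate 3 gave 0.29 for VIP, and centring each array on its median put the brighter CRH probe set at -0.025 and ADCYAP1 at -0.0034. None of these p-values shows that the treatments act alike, and the widest unpaired interval, that of VIP, ran from a ratio of 0.464 to 1.94.

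**Figure D2:**
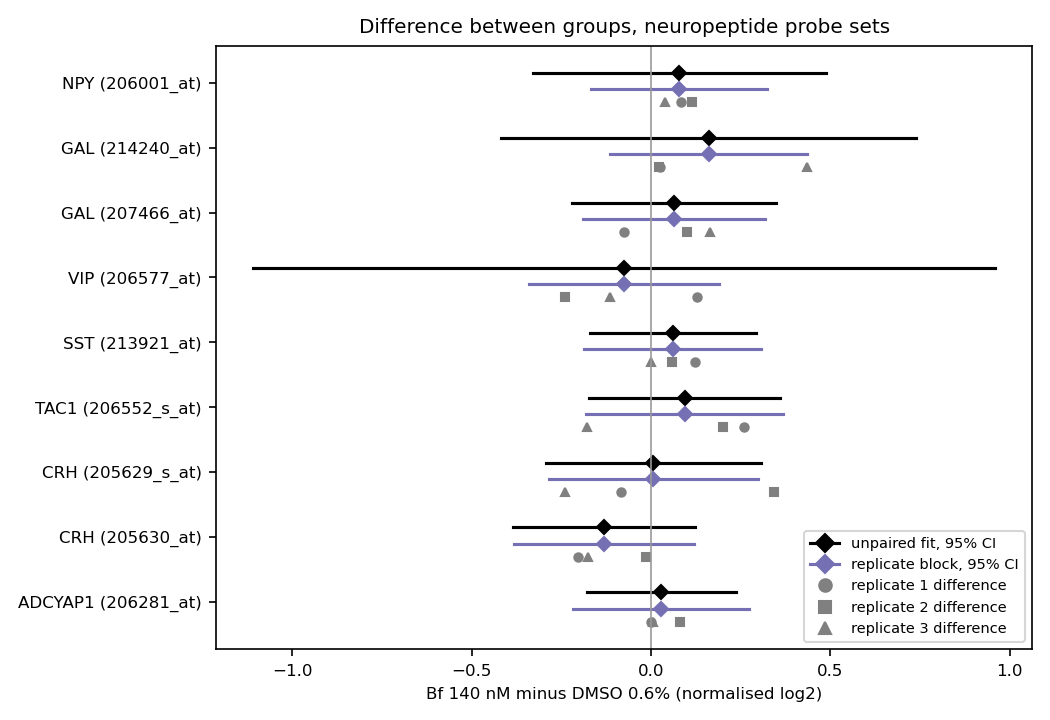
Bf 140 nM minus DMSO 0.6% (normalised log2, horizontal axis) for each neuropeptide probe set, with diamonds for the difference, lines for 95% confidence intervals of the unpaired fit (black) and of the fit with the replicate block (purple), and grey markers for the differences of same-numbered arrays. Every interval crosses 0, and the VIP interval narrows from -1.11 to 0.96 in the unpaired fit to -0.34 to 0.19 with the block.

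For VIP, NPY, SST and both GAL probe sets the range of replicate-number means exceeded the largest pair difference between treatments. The reverse held for TAC1, both CRH probe sets and ADCYAP1. The test of replicate number was chosen after the values were seen. VIP averaged 7.30, 7.99 and 8.72 over the 2 arrays of replicates 1, 2 and 3, a range of 1.42 or 2.68-fold, with an adjusted p of 0.00161 by limma's moderated F test. This range exceeded that of 99.6% of probe sets, whose median range was 0.22. Its largest pair difference between treatments, 0.24, was far smaller. The brighter GAL probe set averaged 12.09, 11.97 and 12.65, a range of 0.68 (adjusted p = 0.0366). NPY averaged 13.17, 13.53 and 13.66, a range of 0.48 that missed the threshold (adjusted p = 0.106). The test called 2 of the 9 member probe sets, where it called 11.0% of all tested probe sets. The 6 probe sets that never exceeded the background-like level had ranges of 0.06 to 0.25, and none was called.

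Replicate 3 held the array with the largest 3′ to 5′ difference in each group. The difference between the 3′ and 5′ control probe sets of beta-actin, which grows as RNA or cRNA is shortened, was 0.24, 0.49 and 0.89 in Bf 140 nM and 0.10, 0.32 and 2.21 in DMSO 0.6% (replicates 1, 2 and 3). It thus ran in the same order as VIP over the replicate numbers. The same difference for GAPDH was 0.20, 0.22 and 0.38 in Bf 140 nM and 0.19, 0.10 and 1.30 in DMSO 0.6%. GAPDH followed the order of VIP in Bf 140 nM but was lowest in replicate 2 of DMSO 0.6%. The beta-actin difference did not separate the treatments (exact two-sided permutation test, p = 0.90, smallest possible p 0.1, n = 3 each). Without both arrays of replicate 3 the VIP range between replicates 1 and 2 was 0.69, with an adjusted p of 0.000481 by the moderated F test. In the fit that holds the beta-actin difference constant the VIP adjusted p by that test was 3.66e-05. Both fits estimate nearly as many terms as there are arrays. Their p-values thus lean on variance pooled over all probe sets, and they do not settle the part of RNA quality. The GAL range was 0.12 without replicate 3 (adjusted p = 0.947), so its call rests on that pair, and the count of members called was then 1 of 9 and 582 of all probe sets.

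**Figure D3:**
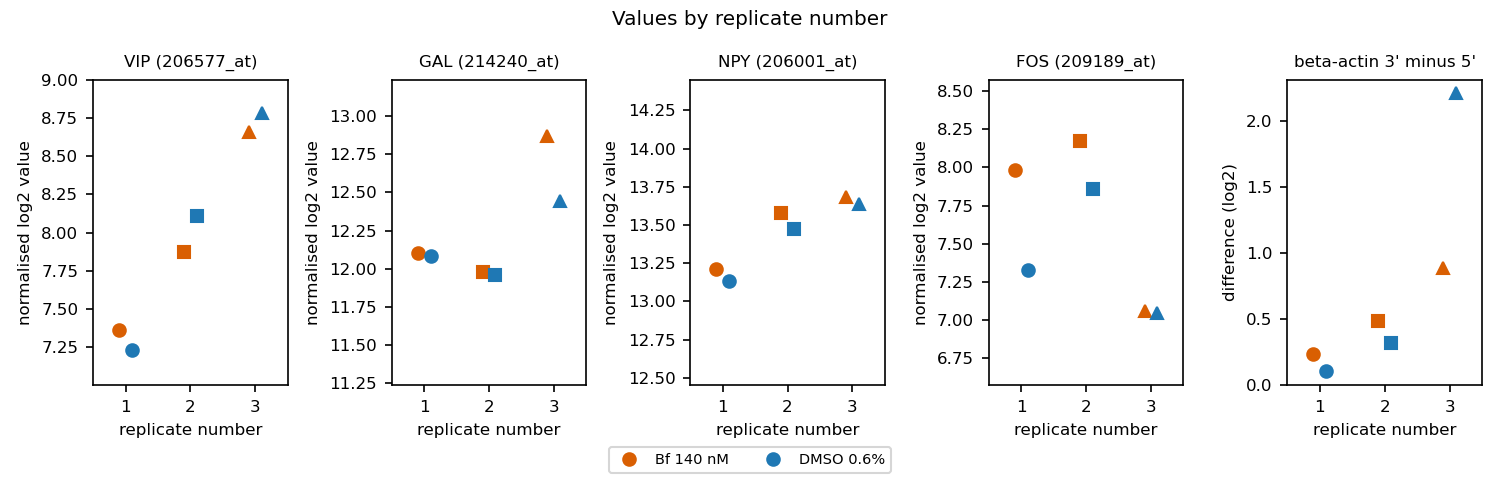
Normalised log2 values (vertical axis) of VIP, GAL, NPY and FOS, and the beta-actin 3′ minus 5′ difference (log2), by replicate number on each array, with Bf 140 nM in orange left of DMSO 0.6% in blue. VIP is at 7.23 to 7.36 in replicate 1 and at 8.66 to 8.78 in replicate 3 under both treatments, and the beta-actin difference is largest, at 2.21, in DMSO 0.6% replicate 3.

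**Figure D4:**
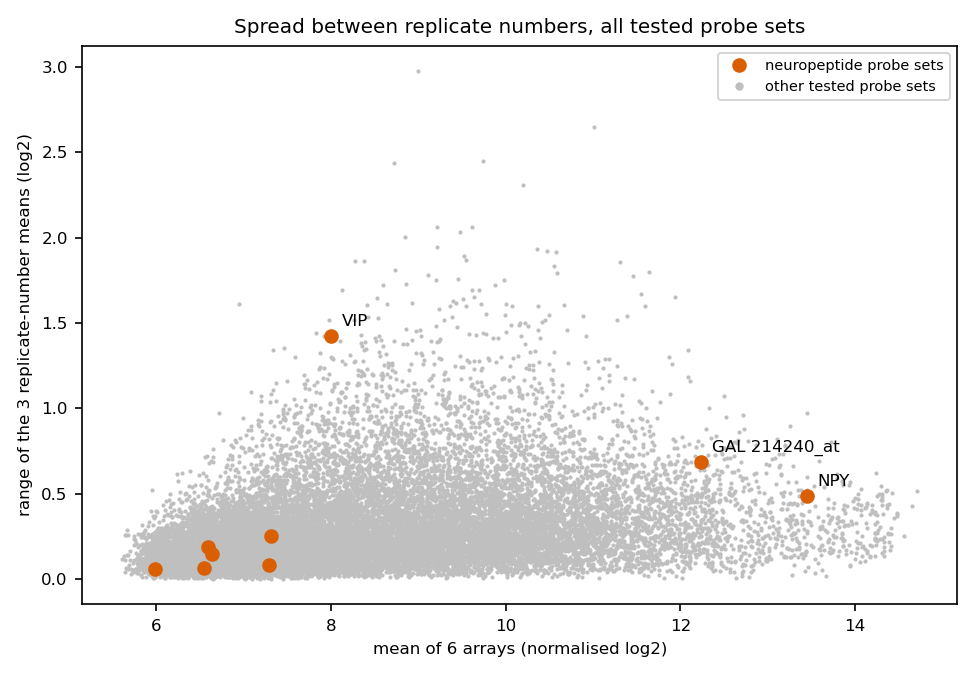
Range of the 3 replicate-number means (log2, vertical axis) against the mean of 6 arrays (normalised log2, horizontal axis), 1 point for each tested probe set, with the 9 neuropeptide probe sets in orange. VIP has a range of 1.42, the brighter GAL probe set of 0.68 and NPY of 0.48, while the other 6 members lie between 0.06 and 0.25.

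The genes whose array pattern was most like that of a member were looked up among 5891 genes above the background-like level on all 6 arrays, by Pearson correlation over the 6 arrays, as a description. For NPY they were SAP30L, part of a histone deacetylase complex (r = 0.968), and SAC3D1 (r = 0.963). For GAL they were the cell polarity gene PARD6A (r = 0.994) and TYMS, thymidylate synthase (r = 0.993). For VIP, which was added to this search after its values were seen, they were KDSR, an enzyme of sphingolipid synthesis (r = 0.996), and NSG1, a neuronal endosomal protein (r = 0.995). NSG1 read 10.34, 10.62 and 11.18 in Bf 140 nM, against 10.29, 10.85 and 11.16 in DMSO 0.6%, so it too followed the replicate number. The points share arrays, RNA quality and replicate number.

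Receptors of the same peptides gave little signal. Of 21 listed genes, those of the receptors and of the CRH-binding protein, 20 had a probe set of their own, 0 exceeded the background-like level on all 6 arrays, 19 on none, and NPY2R, a receptor of NPY, on 1 array. None passed in either direction, 9 of 20 differences were above 0, and the median was -0.03. TACR1, the substance P receptor, had the lowest unadjusted p among those higher in Bf 140 nM, with 7.06, 7.15 and 7.15 in Bf 140 nM against 6.86, 7.06 and 6.93 in DMSO 0.6%, a difference of 0.17 (SE 0.10). NPY5R, another NPY receptor, led in the other direction at -0.14 (SE 0.10). With CRHR1 (0.13) and GALR3 (-0.08), these were the 4 receptors whose groups did not overlap, 2 in each direction and all below the background-like level, where 2.66% of all probe sets did not overlap.

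Among 25 measured precursor genes of other neuropeptides 3 exceeded the background-like level on all arrays, NMU (neuromedin U), NMB (neuromedin B) and CALCB (a calcitonin gene-related peptide). NMU read 11.26, 11.24 and 11.76 in Bf 140 nM, against 11.11, 11.40 and 11.41 in DMSO 0.6%. CALCB read 8.78, 9.16 and 9.41 in Bf 140 nM, against 8.73, 9.32 and 9.31 in DMSO 0.6%, with replicate 1 lowest in both groups as for VIP and NPY. It was the 1 gene of this list called by replicate number (range 0.60, adjusted p = 0.0482). None passed between treatments, 15 of 25 differences were above 0 and the median was 0.01, with PENK, the enkephalin precursor, at 0.14 (SE 0.10) and PMCH, the melanin-concentrating hormone precursor, at -0.22 (SE 0.18).

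Of 9 listed genes that process precursors into peptides 7 were measured, without the convertases PCSK1 and PCSK2, which were not analysed here. Of the 7, 5 exceeded the background-like level on all arrays, FURIN on 5 arrays and QPCT, which cyclises peptide ends, on none. Among the 5 were CPE, the carboxypeptidase that trims peptide ends, and PAM, which amidates them. None passed, the median difference was 0.07, and FURIN, the convertase of the late Golgi, was at 0.10 (SE 0.10) while CPD, another carboxypeptidase, was at -0.03 (SE 0.23). CPD was the 1 gene of the list called by replicate number (range 0.58, adjusted p = 0.0878).

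Of 25 measured genes of cyclic AMP signalling and CREB, 16 exceeded the background-like level on all arrays and 0 passed between treatments, with 17 of 25 above 0 and a median of 0.06. NR4A2, an immediate-early nuclear receptor, was at 0.23 (SE 0.12) and below the background-like level, and CRTC1, a CREB coactivator, at -0.16 (SE 0.15). CREB1 itself was at 0.21 (SE 0.13), named after its value was seen. FOS, an immediate-early gene with a CRE in its promoter, was the 1 gene of this list called by replicate number (range 0.96, adjusted p = 0.0165). It read 7.98, 8.17 and 7.06 in Bf 140 nM, against 7.33, 7.86 and 7.05 in DMSO 0.6%, and was lowest in replicate 3. FOS exceeded the background-like level on only 1 array, Bf 140 nM replicate 2, so its replicate 3 values lay below that level.

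Markers of the labelled cell type and of the other cell type of such cultures were read beside these values. Of 14 measured noradrenergic neuroblast markers 12 exceeded the background-like level on all arrays, while TH, the rate-limiting enzyme of catecholamine synthesis, and HAND2 did so on none. Their 0 calls between treatments included DDC at 0.20 (SE 0.16) and GAP43 at -0.16 (SE 0.33). By replicate number 3 were called, in different orders. GAP43, a growth cone protein, read 10.78, 10.93 and 11.58 in Bf 140 nM, against 10.60, 11.36 and 11.81 in DMSO 0.6%, while CHGA, a protein of dense core vesicles, and ISL1, a transcription factor of sympathetic neurons, were lowest in replicate 2 of both groups (CHGA at 11.26 in Bf 140 nM and 11.38 in DMSO 0.6%, ISL1 at 11.87 in Bf 140 nM and 12.06 in DMSO 0.6%). ISL1 was also highest in replicate 3 of both groups (12.75 in Bf 140 nM and 12.86 in DMSO 0.6%). Markers that were not called differed in order too. STMN2 (13.39 in Bf 140 nM and 13.50 in DMSO 0.6%), GATA3 (13.54 and 13.48) and SLC18A1 were highest in replicate 3 of both groups. PHOX2A, another transcription factor, was lowest in replicate 3 (11.61 in Bf 140 nM and 11.54 in DMSO 0.6%), as were the dim TH and HAND2. By the moderated F test the adjusted p was 0.115 for STMN2, 0.116 for GATA3 and 0.130 for PHOX2A. Of 11 mesenchymal or Schwann-like markers 5 exceeded the background-like level on all arrays, 6 did on none (SOX10, S100B and POSTN among them), and 0 passed between treatments (FN1 at 0.04, SE 0.15, and COL1A1 at -0.26, SE 0.13). Their summed level (log2) was 12.54, 12.38 and 12.16 in Bf 140 nM and 12.57, 12.53 and 12.06 in DMSO 0.6%, lowest in replicate 3. Without COL3A1, the summed level of the other 10 lay between 11.87 and 12.04 in Bf 140 nM and between 11.82 and 12.16 in DMSO 0.6%, highest in replicate 2 and lowest in replicate 3 of both groups, so most of the spread between replicates 1 and 3 came from that gene. COL3A1, a fibrillar collagen, was the 1 marker of that list called by replicate number (range 1.48, adjusted p = 0.00210), with 11.05, 10.15 and 9.71 in Bf 140 nM against 10.95, 10.37 and 9.33 in DMSO 0.6%. The part of these markers and of RNA quality in the VIP values was not tested beyond the fits given above, and fewer cells that express a gene cannot be told apart from less RNA per cell.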

How the data were processed

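Total RNA from SH-SY5Y cells was hybridised to 6 Affymetrix human GeneChip arrays. The authors computed cell intensities in GCOS and normalised them with justvsn in R version 2.5.0, so the deposited values are on a generalised log2 scale; the highest, 15.2, exceeds the natural logarithm of the scanner limit (11.1). The step from probes to probe sets is not described in the material at hand, and precision is limited by having only 6 arrays. The 62 control probe sets served only for RNA quality; the rest were tested.

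Gene names came from the platform annotation, updated by Entrez identifier; 19064 had 1 symbol. A gene's representative probe set had the highest mean. Differences were fitted with limma (version 3.58.1, R version 4.3.3), unpaired, with Benjamini-Hochberg adjustment over all tested probe sets and a threshold of 0.10. The study's SAM was not run. Same-numbered arrays' deviations correlated at 0.60, 0.23 and 0.57, each above the 0.1 set for pairing. Differences of same-numbered arrays were therefore given, and the replicate block was run as an alternative. The main fit stayed unpaired, and it gave the SEs, intervals and p-values between treatments wherever the block is not named. With the block the SE was lower for NPY (0.11), VIP (0.12), the brighter GAL probe set (0.13) and the dimmer one (0.12). It was higher for SST, TAC1, both CRH probe sets and ADCYAP1. The labels do not say what a shared number marks, and likeness from RNA quality was not separated from pairing. Both fits were tested on simulated data with noise drawn independently for each array. That test does not cover the spread shared by same-numbered arrays. Genes named by rule were all members, the lowest unadjusted p of each list in each direction, and the 2 genes most correlated with NPY or GAL. The search with VIP and the other genes named, such as those called by replicate number, were outside this rule. Members and lists were chosen with earlier results of these data known.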

Additional observations from a re-analysis of the deposited data

How the results depend on the processing

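Between treatments the count of members past the threshold was 0 under each alternative: the replicate block, quantile normalization, median centring, a filter on dim probe sets, an intensity trend, the beta-actin covariate, each array left out, and (chosen after seeing the data, as were all alternatives of the replicate-number test) the replicate block without replicate 3. That last fit called 2 of all probe sets, the others 0. The replicate block changed no call; it left the differences as they were (0.08 for NPY, -0.07 for VIP). Of 111 recomputed member differences, 21 could not move by construction (replicate block, intensity trend, filter); of the other 90, 78 kept their sign and 12 did not. VIP turned to 0.16 with the beta-actin covariate and ranged from -0.48 to 0.29 with 1 array left out. The brighter CRH probe set turned to -0.017 with quantile normalization and -0.025 with median centring and ranged from -0.095 to 0.092 with 1 array left out, and ADCYAP1 turned to -0.0034 with median centring. With 1 array left out, NPY ranged from -0.063 to 0.22, the brighter GAL probe set from -0.12 to 0.33 and the dimmer one from -0.029 to 0.16. The 75th percentile gave 4 member probe sets above the background-like level in place of 2. By replicate number, all-probe-set calls were 3851 with quantile normalization and 1237 with the beta-actin covariate, against 2434, and 582 to 3330 with a replicate number left out. Members called then were 1 to 3. By the moderated F test NPY passed with quantile normalization (adjusted p = 0.0521), with median centring (0.0299) and without replicate 2 (0.0419). Fits with the covariate or without a replicate number lean on pooled variance, as described above. The cause of the contrast between replicate numbers was not tested. Dim probe sets limit what SST, TAC1, CRH and ADCYAP1 can show.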
